A study of Homo sapiens with 2 samples.

Results

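Gene-desert TCF7L1-only sites are places on the chromosomes where FLAG-tagged TCF7L1 was called as bound in HCT116 cells, far from the start of any protein-coding gene, and where the DNA-binding mutant was not called. HCT116 is an established human colon cancer line. Chromatin immunoprecipitation sequencing (ChIP-seq) with an antibody against FLAG was carried out on 2 samples, 1 from cells expressing TCF7L1 and 1 from cells expressing TCF7L1-MUT, which carries a mutated DNA-binding domain. In both, endogenous TCF7L1 had been depleted with the short hairpin RNA shTCF7L1-2, and the FLAG-tagged protein was induced from the lentiviral plasmid pCW57.1 with 1 µg/ml doxycycline, so that all binding described is that of an introduced, tagged protein in 1 sample per group. With 1 sample per group there was no replicate and no test between groups, and every interval below is a 95% interval for counting error only.

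A summit is a base at which the signal peaks, and a region can have more than 1. A site was taken from the TCF7L1 peak list as a distinct region with its first listed summit. It had to lie on chromosomes 1 to 22 or X, share no base with a TCF7L1-MUT region, and have its summit outside all protein-coding genes of GENCODE v44, more than 100 kb away from any protein-coding TSS (transcription start site) and over 2.5 kb from every lncRNA TSS. Fewer than 50% of the 31-base words within 100 bp of the summit could occur 2 or more times in hg38, so that most of the window is single-copy sequence. Of 3663 distinct TCF7L1 regions, 3566 lay on these chromosomes and 3487 of them shared no base with any of the 204 TCF7L1-MUT regions. Over the whole list 96.4% had no TCF7L1-MUT overlap, which is a condition of the rule and not a property found here. Of the 3487 regions, 1661 lay outside protein-coding genes, 661 of these over 100 kb from a protein-coding TSS, and 590 also over 2.5 kb from a lncRNA TSS. Repeated sequence removed 174, leaving 416 gene-desert sites. These are 11.4% of all TCF7L1 regions (10.4 to 12.4%, Wilson interval) and 14.8% of the 2814 mostly single-copy TCF7L1-only regions. Members were chosen by the peak list and position, so their signal, position and copy number are given as a description.

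TCF7L1 (TCF3 in older literature) is 1 of the TCF/LEF proteins, which bind DNA through an HMG box and recruit either β-catenin or Groucho/TLE co-repressors to genes controlled by Wnt signaling. TCF7L1 is mostly described as a repressor in this family. The HMG box prefers the motif CTTTG followed by A or T bases. Gene deserts, long stretches with no protein-coding gene, often surround genes for developmental regulators and hold enhancers that act over long distances. In colon cancer cells the Wnt pathway is active, and HCT116 carries a stabilising mutation of β-catenin.

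To show what the sites look like, the reference sequence within 100 bp of the summit (hg38, plus strand, 5′ to 3′) is printed for 11 sites. Capitals mark matches, on either strand, to a TCF pattern (CTTTG followed by 2 bases that are each A or T), an AP-1 pattern (TGACTCA, which reads TGAGTCA on the other strand), a FOX pattern (TGTTTAC or TATTTAC) or a GATA pattern (GATAA or GATAG, with A or T before it). The first pair had the highest fold enrichments of all gene-desert sites. Neither holds a TCF, AP-1 or FOX match, and the ETS1 site has 1 GATA match.
ETS1 site, chr11:128061548-128061748: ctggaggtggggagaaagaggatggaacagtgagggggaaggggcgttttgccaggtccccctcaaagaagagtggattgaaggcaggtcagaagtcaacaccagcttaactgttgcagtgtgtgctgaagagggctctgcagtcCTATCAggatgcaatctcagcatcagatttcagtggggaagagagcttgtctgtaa
KCNJ2 to SOX9 desert site, chr17:71023744-71023944: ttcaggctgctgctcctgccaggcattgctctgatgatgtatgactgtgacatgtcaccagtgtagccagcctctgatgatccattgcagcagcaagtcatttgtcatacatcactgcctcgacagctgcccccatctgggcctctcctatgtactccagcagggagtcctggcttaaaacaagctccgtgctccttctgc

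The next pair had the highest fold enrichments among sites with a TCF match. The match lies 57 bp from the summit at the site between POU3F1 and RRAGC, and 87 bp from it at the site between NUDT12 and EFNA5.
RRAGC site, chr1:38570062-38570262: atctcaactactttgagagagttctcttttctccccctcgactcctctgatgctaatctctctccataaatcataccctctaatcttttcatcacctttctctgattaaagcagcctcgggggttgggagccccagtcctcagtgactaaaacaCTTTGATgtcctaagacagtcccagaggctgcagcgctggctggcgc
NUDT12 site, chr5:104412914-104413114: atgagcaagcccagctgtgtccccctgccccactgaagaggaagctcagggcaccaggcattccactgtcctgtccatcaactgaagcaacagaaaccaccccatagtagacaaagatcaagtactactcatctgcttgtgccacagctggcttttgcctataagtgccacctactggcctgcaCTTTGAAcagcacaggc

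A site nearest SLITRK5 had the highest fold enrichment among the sites with an AP-1 match, which lies 83 bp from its summit.
SLITRK5 site, chr13:87124135-87124335: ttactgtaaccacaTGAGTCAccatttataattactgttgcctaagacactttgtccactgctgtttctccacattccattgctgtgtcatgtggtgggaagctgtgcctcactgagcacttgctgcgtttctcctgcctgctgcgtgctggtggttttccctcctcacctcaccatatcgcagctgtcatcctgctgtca

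The strongest site with a FOX match, nearest DIO2, is followed by the site with the highest −log10 q, upstream of TLE4, which has no match to any of these patterns.
DIO2 site, chr14:79871070-79871270: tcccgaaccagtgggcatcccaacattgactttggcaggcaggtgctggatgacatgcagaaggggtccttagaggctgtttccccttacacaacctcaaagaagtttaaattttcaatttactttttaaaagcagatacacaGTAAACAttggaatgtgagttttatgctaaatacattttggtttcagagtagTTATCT
TLE4 site, chr9:79256906-79257106: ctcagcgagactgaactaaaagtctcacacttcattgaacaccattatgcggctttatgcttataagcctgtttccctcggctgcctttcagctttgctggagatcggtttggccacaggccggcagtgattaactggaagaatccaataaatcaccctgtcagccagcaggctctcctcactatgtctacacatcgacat

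The site nearest GAS1, a gene of interest in the study, has no match, whereas a site nearest AXIN2 has 2 TCF matches, 29 and 47 bp from the summit and on opposite strands.
GAS1 site, chr9:87140716-87140916: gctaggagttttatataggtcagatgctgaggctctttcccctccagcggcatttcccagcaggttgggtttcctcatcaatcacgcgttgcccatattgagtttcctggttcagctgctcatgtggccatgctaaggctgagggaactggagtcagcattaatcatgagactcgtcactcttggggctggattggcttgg
AXIN2 site, chr17:65365363-65365563: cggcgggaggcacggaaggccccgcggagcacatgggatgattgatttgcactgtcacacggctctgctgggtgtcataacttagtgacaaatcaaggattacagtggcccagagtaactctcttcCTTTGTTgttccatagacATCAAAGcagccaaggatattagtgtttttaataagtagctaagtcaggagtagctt

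The last pair, nearest ARAP2 and NOX3, were the strongest sites that hold the 7-base word AGATAAG, which stood out in a search over all words described further on.
ARAP2 site, chr4:33924428-33924628: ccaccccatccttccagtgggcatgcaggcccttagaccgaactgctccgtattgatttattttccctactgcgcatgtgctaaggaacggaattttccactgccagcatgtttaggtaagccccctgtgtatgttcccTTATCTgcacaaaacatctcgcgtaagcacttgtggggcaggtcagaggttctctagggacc
NOX3 site, chr6:155660373-155660573: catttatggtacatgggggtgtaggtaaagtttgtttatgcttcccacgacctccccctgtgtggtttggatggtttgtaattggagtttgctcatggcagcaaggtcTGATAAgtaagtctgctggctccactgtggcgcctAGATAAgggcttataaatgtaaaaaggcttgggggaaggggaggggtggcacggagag

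Signal at the gene-desert sites was modest in absolute terms and, as the calling of a peak requires, above its local background. Fold enrichment is the ratio of reads piled up at the summit to the local background that the peak caller estimated, with 1 added to both. Its median was 5.26 (5.10 to 5.42, binomial interval of the median, n = 416 sites), with quartiles of 4.52 and 6.19 and extremes of 3.08 and 11.1. The median over all 3663 TCF7L1 regions was 5.01 (4.95 to 5.05). A fold enrichment of at least 5 was reached by 243 gene-desert sites (58.4%, 53.6 to 63.1%), beside 50.2% of all TCF7L1 regions. In the intergenic regions 5 to 100 kb from a protein-coding TSS, the class most like the deserts, the median was 4.81 (4.67 to 4.91, n = 493) and 43.0% (38.7 to 47.4%) reached 5. Inside protein-coding genes the median was 5.01 (n = 758), and within 1 kb of a protein-coding TSS 4.58 (n = 683).

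The reads behind these ratios were fewer in the deserts. The number of reads at the summit and the local background follow from the deposited fold enrichment and p-value, which could be solved for whole reads in 100% of the 3663 regions. Gene-desert summits held a median of 19 reads (18 to 20), against 22 (21 to 23) at intergenic summits. The local background was 2.85 reads (2.60 to 3.04) in the deserts and 3.88 (3.72 to 4.03) at intergenic regions, so that the higher ratio stood on a lower background and not on more reads. A peak over a lower background needs a higher ratio to be called. At a −log10 q of 1.39, fold enrichment was 4.21 for a background of 0.899 reads and 3.11 for 4.46 reads. The part of the calling threshold in the difference between the classes was not tested. The −log10 q, which measures the evidence for a peak, was 5.51 (5.18 to 5.82) and 5.55 (5.16 to 6.05). These intervals overlap. The median width was 400 bp, and 10 sites had 2 summits. Gene-desert sites made up 5 of the 100 strongest regions of the whole list and 68 of the strongest 500, and 22 of the 100 strongest mostly single-copy TCF7L1-only regions.

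**Figure D1:**
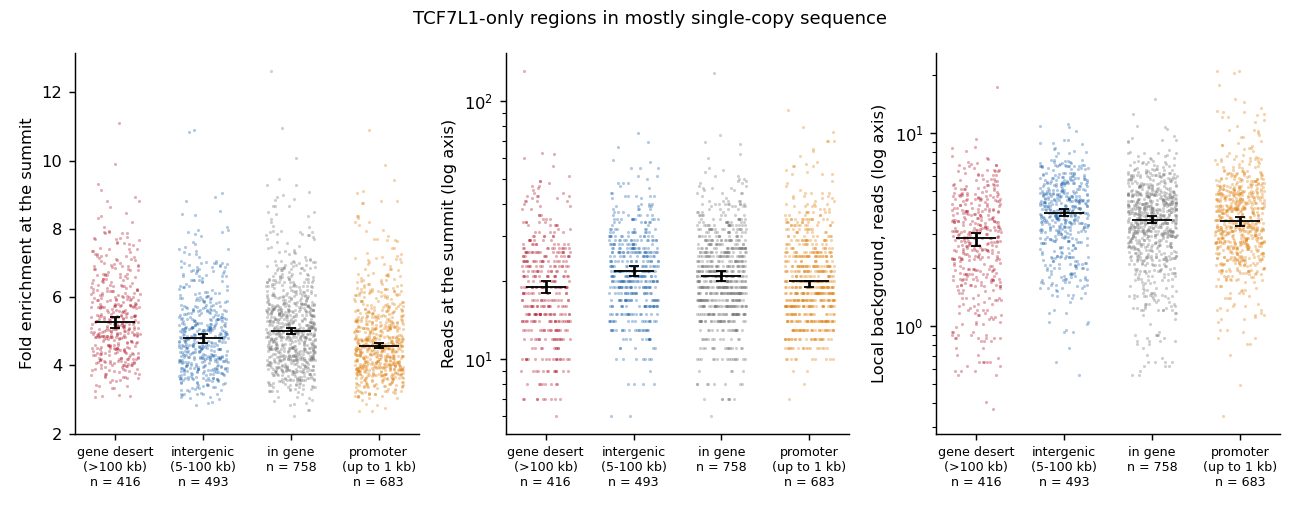
Fold enrichment, reads at the summit and local background (reads) for each TCF7L1-only region in mostly single-copy sequence, by position class, with medians as bars and binomial intervals of the median as whiskers. The gene-desert sites have the highest median fold enrichment of the 4 classes (5.26) and the lowest median background (2.85 reads).

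The strongest site lay 402 kb from ETS1, a transcription factor gene, at chr11:128061294-128061917, in the gap of 1455 kb between KIRREL3 and ETS1. It had a fold enrichment of 11.1, 49 reads over a background of 3.50, and ranked 29th among all regions. The site at chr17:71023488-71024146 (fold enrichment 9.91, 63 reads) lies in the KCNJ2 to SOX9 desert, 854 kb from KCNJ2. SOX9 encodes a transcription factor of the intestinal crypt and of cartilage and testis development, and the sequence before it is a well-known regulatory desert. A site 547 kb upstream of SLITRK5, chr13:87123925-87124695, had a fold enrichment of 9.31 and 51 reads. The fourth strongest, chr10:113350248-113350757, lay past the 3′ end of TCF7L2, the gene of a related TCF protein, 189 kb from its nearest TSS, with a fold enrichment of 9.15 and 47 reads.

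The other 6 of the strongest 10 had fold enrichments of 8.39 to 8.93. They lay between POU3F1 and RRAGC (chr1:38569865-38570435), between NUDT12 and the ephrin gene EFNA5 (chr5:104412846-104413183), nearest FIGN (chr2:163347980-163348494), nearest OLFM4, a marker of intestinal stem cells (chr13:54614802-54615236), between the homeobox gene MEIS1 and ETAA1 (chr2:67054632-67055155), and nearest ZNF608 (chr5:124477130-124477520). Depth differed widely among them, from 16 reads at the NUDT12 site to 60 at the RRAGC site. The RRAGC and NUDT12 sites were the only ones of the strongest 10 with a TCF match within 100 bp, and the SLITRK5 site the only one with an AP-1 match. By −log10 q the leading site was a 1626 bp region 315 kb upstream of TLE4 (chr9:79256698-79258323), with a −log10 q of 61.0, 131 reads over a background of 17.4, and a fold enrichment of 7.19.

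The sites nearest the 100 kb limit were 100654 bp from KLHL1 (fold enrichment 6.65) and 101709 bp from FAM171A1 (5.00), and just outside it lay regions 99785 bp from ROBO1 (5.13) and 99771 bp from EVX1 (6.04). At the lncRNA limit the sites lay 2514 bp from LINC02458 (5.96) and 2696 bp from ENSG00000229379 (4.98), and the regions left out 2264 bp from LINC00358 (3.20) and 2219 bp from ENSG00000290106 (6.11). At the limit on repeated words, sites nearest RFPL4B (5.89) and ALX1 (5.48) had 49.7% repeated words, and regions nearest GRIK2 (5.61) and HAS2 (5.05), at 50.3%, were left out. The 174 desert regions in repeated sequence had a median fold enrichment of 5.48. The 46 desert regions that overlapped a TCF7L1-MUT region had 8.84, and 3 of these were mostly single-copy.

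Gene-desert sites were sparse for the sequence they occupy. Sequence that met the position rule came to 866 Mb, 29.7% of the known bases of these chromosomes, and held 0.480 sites per Mb (0.435 to 0.529, Poisson interval). Intergenic sequence 5 to 100 kb from a protein-coding TSS held 0.815 per Mb (0.745 to 0.890), sequence inside genes 0.830 and promoters 5.42. Per Mb of mostly single-copy sequence the desert density was 0.599 (0.542 to 0.659) and the intergenic density 0.997 (0.911 to 1.09). Within the deserts the density was lower in each farther distance class, with 0.696 per Mb at 100 to 200 kb (159 sites), 0.512 at 200 to 500 kb (160 sites), 0.389 at 500 to 1000 kb (74 sites) and 0.171 beyond 1000 kb (23 sites). These densities are over all eligible sequence, including repeated sequence in which the rule allows no site. The mostly single-copy share was not computed by distance. The median fold enrichment was 4.95 in the first of these classes, 5.49 in the second, and 5.24 in both of the farther ones.

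**Figure D2:**
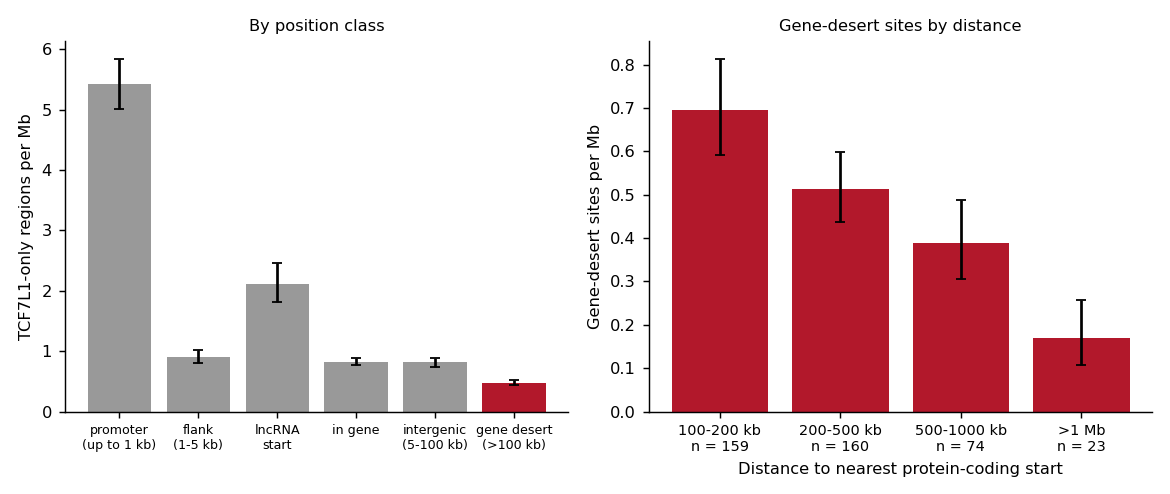
TCF7L1-only regions in mostly single-copy sequence per Mb of sequence, by position class (left), and gene-desert sites per Mb by distance to the nearest protein-coding TSS (right). Bars are densities over all sequence of the class, repeated sequence included, and whiskers are Poisson intervals. The density of gene-desert sites is 0.696 per Mb at 100 to 200 kb and 0.171 per Mb beyond 1000 kb.

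The typical gene-desert site lay 248 kb from the nearest protein-coding TSS (median, quartiles 156 and 453 kb), in a gap of 959 kb between protein-coding genes. It was upstream of that TSS at 220 sites and downstream at 196. The 5 farthest sites were nearest DEFB115 (2368 kb), CELF4 (2157 kb), ARAP2 (2122 kb), TENM3 (2010 kb) and OLFM4 (1586 kb), with fold enrichments of 4.85, 4.84, 7.91, 6.52 and 8.63. The DEFB115 site, chr20:28889759-28890111, had 7 reads and is 1 of 2 sites within 100 kb of a run of at least 10 kb of unknown bases. The other, chr4:49711485-49711832, with a GC content of 21.9% in its window, was also the only site within 100 kb of a TCF7L1-MUT region, at 1905 bp.

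The rule kept protein-coding TSSs over 100 kb away but lncRNA TSSs only over 2.5 kb away, so non-coding starts could lie much nearer. The nearest TSS of any annotated gene was a lncRNA at 244 sites, a pseudogene at 110, another class at 55 and a protein-coding gene at 7. The median distance to a lncRNA TSS was 57.6 kb. Neither these counts nor this distance was computed for the eligible sequence. A lncRNA gene body held 141 sites (33.9%, 29.5 to 38.6%), against 28.1% of the eligible sequence.

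The sites were unevenly spread over chromosomes. Chromosome 13 held 54 of them, 13% of the sites on 5.02% of the eligible sequence, or 1.24 per Mb (0.933 to 1.62). Chromosomes 15 (20 sites, 1.12 per Mb), 17 (12 sites, 0.886 per Mb) and 6 (43 sites, 0.804 per Mb) followed. Chromosome 14 had 3 sites on 28.7 Mb (0.104 per Mb, 0.0215 to 0.305), chromosome 21 had 2 on 17.0 Mb, and chromosome 19 had 0 on 6.33 Mb. The other single-copy TCF7L1-only regions, set beside these, had a density of 1.6 per Mb on chromosome 13 and 0.987 on chromosome 14. The median local background of gene-desert sites was 2.67 reads on chromosome 13 and 3.35 on chromosome 14. Copy number of the chromosomes in these cells was not analysed here.

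Sites often shared a gap. Of 1823 gaps between protein-coding genes with eligible sequence, 245 (13.4%) held a site, and 91 held 2 or more, together 262 sites (63.0%). Within 50 kb of another gene-desert site lay 99 sites (23.8%, 19.96 to 28.1%). Gaps differ widely in length, and the counts to be had from gap length alone were not computed. The fullest gap, on chromosome 13 between the genes ENSG00000197991 and ENSG00000237378, which the annotation lists without a symbol, held 10 sites over 1581 kb. Their fold enrichments ran from 3.9 to 6.65, and 2 had a TCF match. The gap of 1842 kb between MCTP2 and NR2F2 on chromosome 15 held 9 sites over 883 kb. NR2F2 (COUP-TFII) is a nuclear receptor of vein and heart development. The strongest of the 9, chr15:96053090-96053630, lay 273 kb upstream of NR2F2 with a fold enrichment of 7.34 and 48 reads, followed by chr15:95556822-95557754 (6.60, 49 reads) and chr15:95911739-95912211 (6.56, 33 reads, 1 TCF match). The weakest, chr15:95170441-95170837, had a fold enrichment of 4.09.

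The gap between ZNF608 and GRAMD2B on chromosome 5 held 8 sites over 812 kb, and all 8 lie within lncRNA gene bodies. Their fold enrichments were 5.57, 7.34, 6.02, 6.19, 3.53, 3.97, 7.07 and 6.42 in order along the chromosome. The site nearest to ZNF608, chr5:124888179-124888576, had 2 TCF matches. Gaps with 5 to 7 sites lay between PCDH9 and KLHL1 (7), KCNU1 and ZNF703 (6), NSG2 and MSX2, TBX3 and MED13L, ENSG00000285566 and PCDH9, SLITRK5 and GPC5, and KCNJ2 and SOX9 (5 each). Per Mb of eligible sequence the NSG2 to MSX2 gap held 14.2 sites and the KCNU1 to ZNF703 gap 11.6. MSX2, a homeobox gene, and TBX3 and SOX9 are developmental transcription factors.

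The 416 sites were nearest to 281 different protein-coding genes, 81 of which were nearest to 2 or more. Genes of the Wnt pathway and its targets were the nearest gene of 19 sites (4.57%, 2.94 to 7.02%), whereas the same genes were nearest to 0.957% of the eligible sequence. This came to 2.29 sites per Mb (1.38 to 3.58) against 0.480 for the deserts as a whole. The 19 sites lay near 7 of the 27 listed genes that are nearest to any eligible sequence, in 10 gaps. In the intergenic class the share was 2.84% (1.70 to 4.71%). The list was assembled with earlier results of these data known.

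Among the inhibitors and co-repressors, TLE4, a Groucho co-repressor that binds TCF proteins, was nearest to 5 sites. Besides the broad site with 131 reads, there was chr9:79447591-79448358 (fold enrichment 5.90, 34 reads, 1 TCF match) and 3 weaker ones of 3.85 to 5.06. Of the sites near TLE3, a co-repressor of the same family, chr15:69855612-69856023 had 2 TCF matches and a fold enrichment of 4.92, and chr15:70349132-70349706 one of 3.08, the lowest of all gene-desert sites. AXIN2, a scaffold of the β-catenin destruction complex and a classical Wnt target, was nearest to a pair of sites 5.4 kb apart. The first, chr17:65365278-65365645, had a fold enrichment of 5.42 and 33 reads, with 2 TCF matches, and the second, chr17:65370691-65371004, had 4.14 and 21 reads, with 1 TCF match. BAMBI, a pseudoreceptor that dampens TGF-β signaling, was nearest to 3 sites with fold enrichments of 3.26, 5.75 and 5.33, all inside LINC01517.

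Among the transcription factors of the list, TCF7L2 was nearest to the strong site already described and to chr10:112832221-112832604, upstream of it, with a fold enrichment of 3.11. TBX3 was nearest to 3 sites with fold enrichments of 3.63, 3.62 and 4.95. SOX9 was nearest to a pair of sites 680 and 682 kb upstream of it, chr17:71440202-71440868 (7.01, 56 reads, 1 TCF match) and chr17:71438706-71439061 (5.03, 38 reads, 1 AP-1 match). In all, 7 of the 19 sites had a TCF match. A list of 9 genes selected from those the study names does not include TCF7L2. Of these 9, GAS1 was the nearest gene of 1 gene-desert site (0.240% of sites, against 0.257% of the eligible sequence). The other 8 were nearest to none. Only 4 of the 9 are nearest to any eligible sequence, and the rest could have no site. GAS1 encodes a membrane protein that acts in Hedgehog signaling and growth arrest. Its site, chr9:87140526-87141011, lay 193 kb upstream with a fold enrichment of 4.36, 12 reads and a −log10 q of 2.45, which are all below the medians of the gene-desert sites.

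Developmental transcription factor families were the nearest genes of 52 sites (12.5%, 9.66 to 16.03%), against 5.59% of the eligible sequence, and 10.5% in the intergenic class. NR2F2 led with 7 sites, and MEIS1 and MSX2 had 4 each. SOX9 and TBX3 are on this list and on the Wnt list. Cadherins and other adhesion genes were nearest to 30 sites (7.21%, 5.10 to 10.1%) and to 9.10% of the eligible sequence. Axon guidance genes stood at 12 sites (2.88%) and 2.73% of sequence, and growth factor and morphogen genes at 9 sites (2.16%) and 1.49%. For these 3 lists the interval contained the share of sequence.

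**Figure D3:**
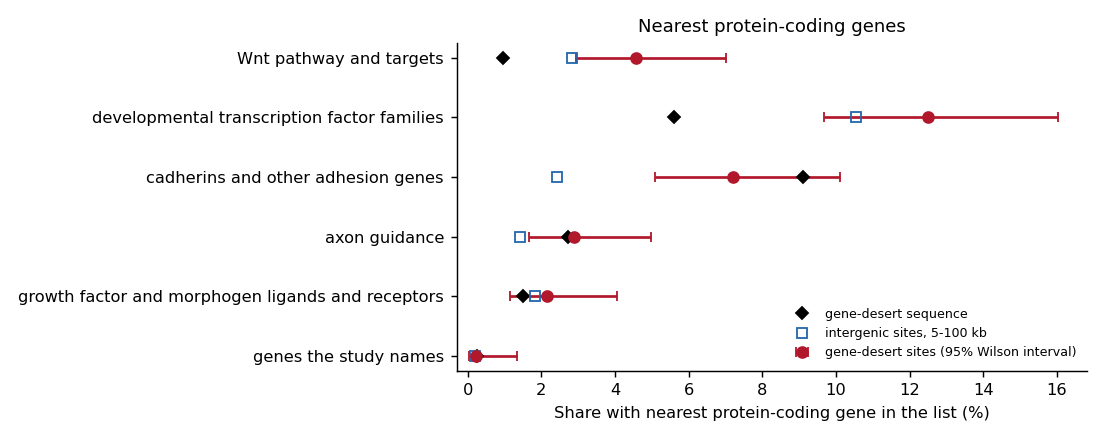
Share (%) of the 416 gene-desert sites whose nearest protein-coding gene is on each of 6 lists (red circles, Wilson intervals; the list of genes the study names holds a selection of 9), beside the share of eligible gene-desert sequence (black diamonds) and of intergenic TCF7L1-only regions (blue squares). For the Wnt list the sites stand at 4.57% and the sequence at 0.957%.

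Base composition set the summits apart from their surroundings. The 201 bp windows at the summits had a mean GC content of 49.9%, against 39.3% in windows 1 kb to either side and 37.3% on a regular grid of gene-desert windows every 10 kb. At 379 of the 416 sites (91.1%, 88.0 to 93.5%) the window was richer in GC than the mean of its own flanks. The mean number of CpG dinucleotides was 4.13 per window at the summits and 1.66 in the flanks. The other mostly single-copy position classes also had higher means of both at the summits than in the flanks. Mean GC was 51.1% against 43.5% in the intergenic class, 49.7% against 40.8% inside genes and 56.3% against 46.0% in promoters. The intergenic CpG means were 4.24 and 2.38. Windows with at least 55% GC and an observed to expected CpG ratio of at least 0.6 were 17 of 416 at the summits (4.09%, 2.57 to 6.45%) and 1 of 832 in the flanks. The part of base composition in the calling of these sites was not tested.

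The share of windows with the TCF pattern was close at the gene-desert summits and next to them. The pattern was found in 78 of the 416 windows (18.8%, 15.3 to 22.8%), beside 26.7% of the windows of all TCF7L1 regions and 19.7% of the windows 1 kb away. The whole list includes regions in repeated sequence, which the rule leaves out. In the other mostly single-copy position classes of TCF7L1-only regions the share ran from 20.1% to 23.3%. The ratio of summit to flank was 0.951 (0.776 to 1.16), an interval that contains 1. In the intergenic class the pattern was in 20.1% of windows (16.8 to 23.8%) and 13.2% of the flanks, a ratio of 1.52 (1.27 to 1.81). The intervals of the summit shares of both classes overlap. Against the unweighted grid the ratio was 0.976 (0.796 to 1.19) at the gene-desert sites and 1.18 (0.990 to 1.41) in the intergenic class. The comparison depended on base composition. Windows of the grid, weighted so that their GC content followed that of the sites, held the TCF pattern in 11.9%, and against these the ratio was 1.57 (1.28 to 1.91). For the intergenic class the ratio weighted in the same way was 1.79 (1.5 to 2.13). Of the 4 forms of the pattern, CTTTGAT was in 6.97% of the site windows and 4.21% of the flanks, CTTTGTT in 6.97% and 6.73%, CTTTGAA in 5.53% and 6.49%, and CTTTGTA in 2.16% and 3.97%. The median distance of the nearest match from the summit was 49 bp (36 to 57) at the sites and 46 bp from the centre of flank windows with a match. More than 1 match was present at 13 sites.

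AP-1 is the dimer of FOS and JUN proteins that binds enhancers widely. Its pattern was in 36 site windows (8.65%, 6.32 to 11.7%), beside 7.35% of all TCF7L1 windows and 2.52% of the flanks, a ratio of 3.43 (2.5 to 4.65). The ratio was 6.33 (4.08 to 9.74) within 50 bp of the summit and 2.28 (1.66 to 3.09) against GC-weighted windows. In the other mostly single-copy position classes the AP-1 share ran from 4.39% in promoters to 14.2% (11.4 to 17.6%) in the intergenic class. The intergenic ratio was 3.41 (2.74 to 4.22) to the flanks and 3.64 (2.92 to 4.50) to GC-weighted windows. None of the 23 sites beyond 1000 kb had an AP-1 match and 3 had a TCF match, while at 100 to 200 kb 15 of 159 had an AP-1 match and 36 a TCF match. With 23 sites, 0 matches allow a share up to 14.3% (Wilson interval).

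The FOX pattern, bound by forkhead factors such as FOXA, was in 35 windows (8.41%, 6.11 to 11.5%), beside 12.6% of all TCF7L1 windows and 7.81% of the flanks. In the other mostly single-copy position classes its share ran from 3.81% to 10.8%. The ratio to the flanks was 1.08 (0.782 to 1.47), and to GC-weighted windows 2.27 (1.65 to 3.1). Its forms went in opposite directions, with TGTTTAC in 6.73% of site windows and 3.25% of flanks, and TATTTAC in 1.68% and 4.57%. The GATA pattern was in 191 windows (45.9%, 41.2 to 50.7%), beside 31.9% of all TCF7L1 windows and 37.0% of the flanks, a ratio of 1.24 (1.11 to 1.37), and of 1.81 (1.62 to 1.99) against GC-weighted windows. Against the unweighted grid the ratio was 1.07 (0.957 to 1.18), and within 250 bp of the summit it was 1.03 (0.970 to 1.09) to the flanks, so that both intervals contained 1. In the other mostly single-copy position classes the GATA share ran from 20.5% in promoters to 41.8% (37.5 to 46.2%) in the intergenic class. The intergenic ratio was 1.34 (1.20 to 1.48) to the flanks and 1.82 (1.64 to 2.02) to GC-weighted windows. The GATA form AGATAA was in 22.8% of gene-desert site windows and 15.7% of their flanks. TCF and FOX matches overlapped in 2 windows. None of the 4 patterns was present at 150 sites (36.1%, 31.6 to 40.8%).

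**Figure D4:**
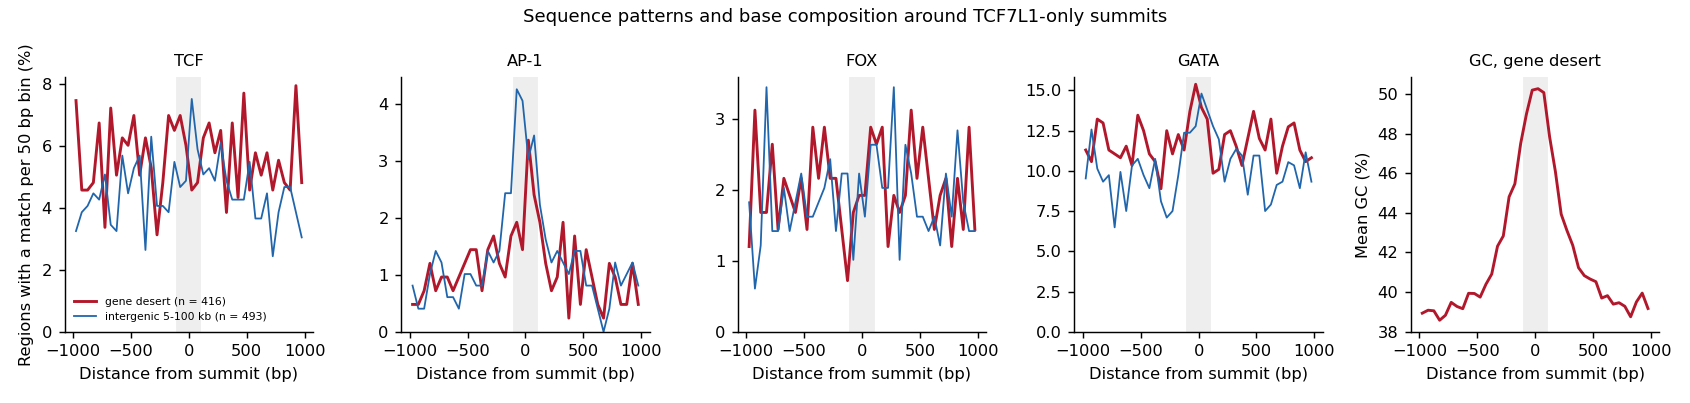
Share (%) of regions with a match to the TCF, AP-1, FOX or GATA pattern in each 50 bp bin up to 1000 bp from the summit, for 416 gene-desert sites (red) and 493 intergenic regions (blue), and mean GC content (%) per bin at the gene-desert sites. At the gene-desert summits the AP-1 and GC curves peak and the TCF curve does not.

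Of 9 further patterns, 4 had a higher share at the summits than 1 kb away, with intervals of the ratio above 1. These intervals leave out the counting error of the flank share. For CTCF, with 15 sites and 17 flank windows, the interval started at 1.08, and an interval over both counts was not computed. SP/KLF (GGGCGG) was in 8.41% against 1.92%, E-box (CAGCTG or CACGTG) in 22.6% against 9.62%, CTCF (AGGGGGC) in 3.61% against 2.04%, and TEAD (CATTCC) in 13.7% against 8.05%. The SOX pattern (ACAATA or ACAATG) was less frequent, at 17.3% against 25.5%, and so was an AT-rich pattern (TTTGA or TTTTA, then A or T), which overlaps 2 forms of the TCF pattern, at 57.2% against 68.1%. The study lists this AT-rich pattern among the leading enriched motifs of TCF7L1-bound promoter regions, another set of regions. It associates the pattern with TCF7L1 and related TCF/LEF proteins. RUNX (TGTGGTC or TGTGGTT) at 6.97% and 6.37%, CDX (TTTATG or TTTATT, then A or G) at 27.2% and 24.0%, and HNF4 (CAAAGTCC, or CAAAGTTC) at 1.92% and 1.32% had intervals of the ratio that contained 1. Weighting for GC moved these ratios as well. CDX rose from 1.13 to 2.82 (2.40 to 3.29), the AT-rich pattern from 0.840 to 1.53 (1.41 to 1.66) and SOX from 0.679 to 1.19 (0.960 to 1.46), and SP/KLF fell from 4.38 to 1.99 (1.45 to 2.72), E-box from 2.35 to 1.41 (1.17 to 1.67), TEAD from 1.70 to 1.05 (0.823 to 1.33) and CTCF from 1.76 to 1.01 (0.618 to 1.65). The intervals for TEAD and CTCF then contained 1, and the AT-rich pattern went from below 1 to above 1 with both intervals excluding 1.

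**Figure D5:**
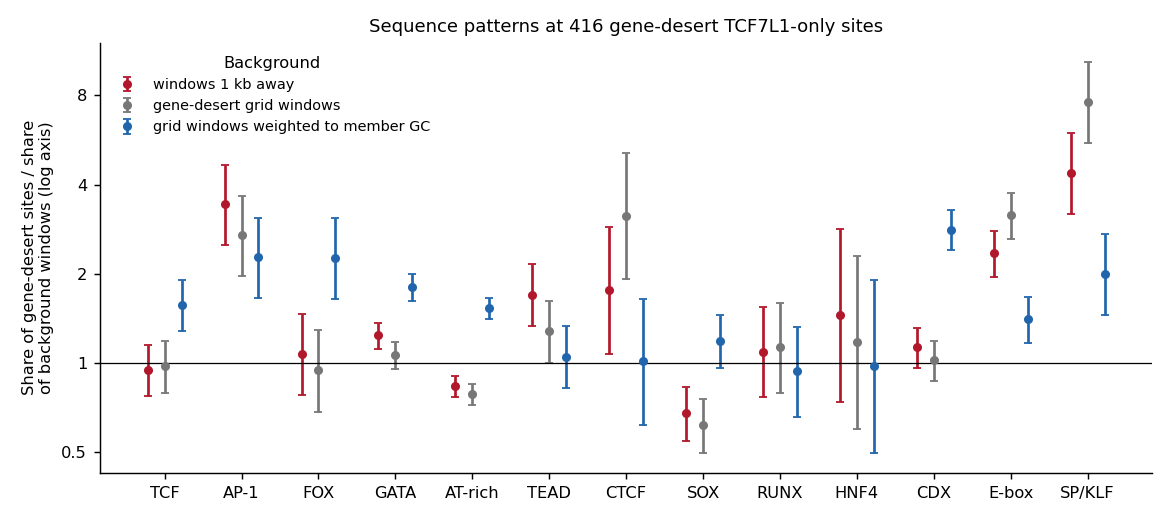
Share of gene-desert sites with each of 13 patterns divided by the share in windows 1 kb away (red), on the gene-desert grid (grey) and on that grid weighted to the GC content of the sites (blue), on a log axis, with the Wilson interval of the site share divided by the same background. TCF, FOX and GATA stand higher against the GC-weighted grid (1.57, 2.27 and 1.81) than against the flanks (0.951, 1.08 and 1.24).

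A search over all 8192 words of 7 bases, each counted with its reverse complement, put CAGCAGG first by difference between site and flank windows, at 16.3% (68 sites) against 3.85%. The next were GCAGCCA (54 sites against 2.40% of flanks), CCAGCAG (54 sites against 2.88%), CCCTCCC (53 against 3.97%), AGGCAGC (46 against 2.40%), ACAGCAG (48 against 3.37%), CAGCAGC (45 against 2.64%) and AGCAGCC (43 against 2.28%). AGATAAG and then CAGGCAG (53 against 4.81%) completed the first 10. Most of these words contain CAGCAG or GCAGCC. Whether they overlap each other at the same sites was not computed. AGATAAG, an extended GATA word, was the only AT-rich word of the 10, at 46 sites (11.1%, 8.39 to 14.4%) against 3.0%. Against GC-weighted windows its ratio was 4.85 (3.68 to 6.33), and that of CAGCAGG 1.81 (1.45 to 2.24). The words were ranked by this same difference, so their order is a description.

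Many-copy sequence was present at a minority of the sites. Words of 16 bases with at least 1000 copies in the genome, at least 10 of them per window, were present at 43 sites (10.3%, 7.76 to 13.6%), in 17.1% of the flanks and in 16.3% of the grid windows. The median fold enrichment was 5.27 with and 5.25 without such words. A 20-base word was shared with another site by 34 sites. Without the windows that hold such many-copy words, the ratios to the flanks were 0.887 (0.715 to 1.09) for TCF, 3.29 (2.35 to 4.55) for AP-1, 1.12 (0.800 to 1.54) for FOX and 1.21 (1.08 to 1.34) for GATA.

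Fold enrichment differed little between sites with and without the patterns. Median fold enrichment was 5.41 (5.05 to 5.64) with and 5.23 (5.06 to 5.42) without a TCF match, 5.47 (4.83 to 6.25) with and 5.23 (5.06 to 5.42) without an AP-1 match, and 5.23 and 5.26 for GATA. Over quartiles of fold enrichment, from the weakest to the strongest 104 sites, the TCF pattern was in 15, 22, 26 and 15 windows, and AP-1 in 7, 9, 7 and 13. AP-1 and TCF matches occurred together at 7 sites, which is 19.4% of those with AP-1 and 9.0% of those with TCF.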

How the data were processed

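ChIP-seq with an antibody against FLAG was analysed in 2 HCT116 samples. Per the study's methods and the submitters' processing notes, the authors trimmed reads with skewer, checked them with FastQC, aligned them to GRCh38/hg38 with BWA 0.7.12 and called peaks for each sample with MACS2 2.1.0. The use of an input control, the treatment of duplicate and multiply mapped reads and the q-value threshold are not given in the sources used here. In the deposited peak lists every summit has a fold enrichment, which is a linear ratio, and the −log10 of a p-value and of a q-value, all from the authors' MACS2 run. The deposited summit lists hold the same positions and −log10 q (0 entries differed) and were not used further. Library depth was not analysed here.

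Summits were placed on GENCODE v44 and hg38 without alternates (194 sequences). Reads at the summit were solved from fold enrichment and p-value, assuming a Poisson upper tail, within a tolerance of 0.001. Windows were 201 bp. Background windows lay 1 kb to either side of each summit or every 10 kb, and were weighted over bins of 5 percentage points of GC. Intervals were Wilson (shares), Poisson (densities) or binomial (medians), and none covers the spread between experiments. The interval of a ratio covers the share at the sites only. Searches and solved reads were tested on simulated data. Sites in 1 gap or near 1 gene are not independent. Analyses used Python 3.11.15, numpy 2.4.6, pandas 2.3.3 and scipy 1.17.1.

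The members, gene lists and patterns were chosen with earlier results of these data known. The text names the 10 sites with the highest fold enrichment, the 5 farthest from a protein-coding TSS, those in the 3 fullest gaps, those near genes of the Wnt list or of 9 genes selected from the study, the 2 on each side of every limit, and the 10 leading 7-base words; other gaps, genes and sites were named after their values were seen. The GC-weighted grid, the count of gaps once each, the lists at a fold enrichment of at least 5, the single-copy density and the removal of many-copy windows were added after the data were seen. The sequence of 1 further site is not reported here.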

Additional observations from a re-analysis of the deposited data

How the results depend on the processing

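Of 79 alternative values, 58 stayed close to the value reported and 21 moved beyond its interval or by more than 1.5 times (the 9 further patterns are not among them). Among the further patterns, the AT-rich ratio went from 0.840 to 1.53 against the GC-weighted grid, and the TEAD and CTCF ratios to 1.05 and 1.01. The cause was not tested. The number of gene-desert sites was 257 with a limit of 200 kb and 243 with a fold enrichment of at least 5, and lay between 325 and 590 under the other limits. The density was 0.281 per Mb at a fold enrichment of at least 5, 0.396 at a q-value of at most 0.001 and 0.599 over single-copy sequence only. The median fold enrichment was 5.43 beyond 200 kb and 5.55 at a q-value of at most 0.001. The AP-1 ratio was 6.33 within 50 bp, 1.94 within 250 bp, 2.06 against flanks at 2 kb and 2.28 against the GC-weighted grid. The GATA ratio was 1.03 within 250 bp (0.970 to 1.09), 1.07 against the unweighted grid (0.957 to 1.18), 1.38 for sites with no repeated word and 1.81 against the GC-weighted grid. Against that grid the TCF ratio was 1.57 and the FOX ratio 2.27, whereas their other alternatives lay between 0.887 and 1.10 for TCF and between 0.864 and 1.25 for FOX. When a gene on either side of the gap was counted in place of the nearest one, the Wnt list stood at 7.21%, developmental transcription factors at 22.4% and adhesion genes at 12.02% of sites, with no share of eligible sequence computed for that count. At a fold enrichment of at least 5, 0% of sites were near one of the 9 genes selected from the study and 3.70% near a Wnt gene. With each gap counted once, the Wnt share was 4.08%.

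No paired analysis was possible because only 1 library stood on either side, and no value can be recomputed without a replicate. Peaks were called by the authors, so only stricter thresholds were tried. At a median of 19 reads per summit, the absence of a TCF7L1-MUT region shows that no peak was called there, and not that there was no signal.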

Other observations

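Outside the lists described above, or beyond the genes named from them, several genes had more than 1 gene-desert site. AUTS2 and QKI were nearest to 4 gene-desert sites each, FGFR2, a receptor for fibroblast growth factors, and SEMA6A, a guidance molecule, to 3 each, and BMP7, a morphogen of the TGF-β family, to 2. The gap between HDDC2 and HEY2, a transcription factor of the Notch pathway, held 4 sites within 190 kb, which is 16.6 per Mb of its eligible sequence, 2 of them with a TCF match. The gap between SLC7A11, a cystine transporter, and NOCT held 4 sites within 265 kb with a median fold enrichment of 6.31, and the 4 sites past QKI had a median of 7.06. These gaps were chosen after their values were seen.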
